A study of Homo sapiens with 4 samples.

Results

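The human metallothionein cluster on chromosome 16 was examined in human embryonic stem cells (hESCs) of the naïve and the primed state. Its 10 members were taken by symbol, as MT1A, MT1B, MT1E, MT1F, MT1G, MT1H, MT1M, MT1X, MT2A and MT3, from 62218 genes matched in the count files. They lie between positions 56589074 and 56684196 of chromosome 16 (GRCh38), a stretch of 95123 bases. Of the members, 9 are on the plus strand and 1, MT1G, is on the minus strand, with 1748 bases between MT1G and MT1H. The annotation places 11 other genes in the same stretch.

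Metallothioneins are very small proteins rich in cysteine. Their thiol groups hold zinc and copper, and can also take up toxic metals such as cadmium. Their genes are classic targets of MTF1, a zinc finger factor that binds metal response elements in promoters when free zinc is high, and glucocorticoids and oxidative stress are also known to induce them. MT1 and MT2 genes are expressed in most tissues, whereas MT3 is best known from the brain.

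The 4 libraries are Nanopore cDNA of 1 wild-type line, H1, with 2 replicates for each state. Primed hESCs were kept in mTeSR on Matrigel in normal oxygen, up to 60% to 70% confluency. Naïve hESCs were derived from these primed cells and kept in the FINE condition, a medium with kinase inhibitors, LIF, activin A and bFGF, in low oxygen, and the label gives 50% confluency. State, medium, oxygen and confluency changed together and cannot be told apart here. Below, words such as fell and rose compare primed with naïve libraries and describe no change over time. Nothing says that replicates were separate cultures, so p-values measure the spread between these libraries, which may be technical. The values are raw alignment counts. The count of a gene is that of its transcript with the largest mean count. Coordinates printed after a gene identifier are those of this transcript, and other isoforms may reach further. CPM is the gene's count relative to the library's gene-level total, after TMM normalization, a scaling that assumes most genes do not differ. Gene-level totals ranged from 23542375 to 30978783 counts per library, with TMM factors of 0.779 and 0.824 in naïve and 1.25 and 1.24 in primed hESCs. All 8 markers of naïve hESCs were lower, and all 8 markers of primed hESCs higher, in the primed libraries, as their labels say. The naïve markers summed to between 1042 and 1227 CPM in the naïve libraries. Trophoblast markers summed to more there, between 2074 and 2408 CPM, so the naïve libraries also carried RNA of trophoblast marker genes.

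Promoters of 4 members are shown, the only ones of the 10 members held by the RefSeq promoter table used (GRCh38.p14). They were searched for the motif through which metals act on metallothionein genes. Each covers the 250 bases before the annotated start, 5′ to 3′ on the plus strand. Capitals mark matches to the core of the metal response element, searched as TGCACNC or TGCGCNC on both strands, and no matches overlapped.
MT2A: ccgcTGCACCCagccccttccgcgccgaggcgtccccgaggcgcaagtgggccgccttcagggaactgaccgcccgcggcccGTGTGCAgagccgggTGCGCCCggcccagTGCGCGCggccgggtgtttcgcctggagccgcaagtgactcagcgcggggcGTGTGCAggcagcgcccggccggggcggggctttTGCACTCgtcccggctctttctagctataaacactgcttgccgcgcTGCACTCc
MT1B: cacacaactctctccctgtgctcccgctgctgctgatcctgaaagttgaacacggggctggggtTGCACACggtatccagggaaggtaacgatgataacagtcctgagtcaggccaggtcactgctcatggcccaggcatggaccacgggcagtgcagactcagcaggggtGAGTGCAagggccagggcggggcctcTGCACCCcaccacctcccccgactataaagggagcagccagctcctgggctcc
MT1H: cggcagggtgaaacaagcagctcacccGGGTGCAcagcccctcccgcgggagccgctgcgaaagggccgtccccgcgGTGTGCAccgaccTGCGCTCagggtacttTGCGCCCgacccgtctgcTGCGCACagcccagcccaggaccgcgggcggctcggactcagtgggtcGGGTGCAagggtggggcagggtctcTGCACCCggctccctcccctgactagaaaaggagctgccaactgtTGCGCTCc
MT1X: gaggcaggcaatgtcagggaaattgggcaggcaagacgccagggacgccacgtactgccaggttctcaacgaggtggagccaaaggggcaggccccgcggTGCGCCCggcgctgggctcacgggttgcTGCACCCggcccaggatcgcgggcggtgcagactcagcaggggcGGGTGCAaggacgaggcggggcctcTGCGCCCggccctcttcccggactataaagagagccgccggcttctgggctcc
These are chr16:56608334-56608583 for MT2A, chr16:56651636-56651885 for MT1B, chr16:56669564-56669813 for MT1H and chr16:56682220-56682469 for MT1X.

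Of 35116 promoters of the same length, 24.8% held at least 1 match. The MT1H promoter held 8 matches, and 0.0171% of promoters held as many. MT2A had 7 matches, a number reached by 0.0313% of promoters. MT1X had 4 and MT1B had 3, numbers reached by 0.370% and 1.58% of promoters. All 4 windows thus held several matches. Whether their number bears on the differences between states was not tested. The letters TATAAA stood 29 bases before the start in MT2A and 30 bases before it in MT1B and MT1X, and were not in the MT1H window. This motif was in 10.7% of promoters on either strand. A match is a description of letters and does not show binding.

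Metallothionein transcripts were lower in primed than in naïve hESCs across the cluster. All 8 members with enough counts to test were lower in primed hESCs by edgeR's two-sided quasi-likelihood test (adjusted p under 0.05, Benjamini-Hochberg over 27633 genes), where 32.6% of all genes tested were lower and 37.4% were higher. Their median log2 fold change of primed over naïve was -2.97, against 0.08 over all genes. For each of the 8, both primed libraries lay below both naïve libraries in CPM after TMM, as they did for 39.6% of all genes. MT1M reached the minimum of 10 counts in the naïve libraries only, so a gene like it could enter the test only by differing. The other 7 reached it in both states, with a median of -2.45. MT1B and MT3 had too few counts to test. In bulk libraries, fewer cells that express a gene and less RNA of it per cell cannot be told apart.

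The summed count of the 10 members was 21387 and 19723 in naïve rep1 and rep2, and 5072 and 7577 in primed rep1 and rep2. In CPM these sums were 926 and 772 in naïve and 172 and 247 in primed hESCs. The sum was thus 4.10-fold lower in primed hESCs after TMM and 2.64-fold lower when scaled by library size alone. A read that aligned to several members may be counted more than once in this sum. Library size moved the median of all genes from 0.08 to 0.72 and that of the members to -2.33. Under it 7 of the 8 members were lower, where 16.3% of all genes were, with log2 fold changes from -5.57 (MT1M) to -0.025 (MT1X).

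**Figure D1:**
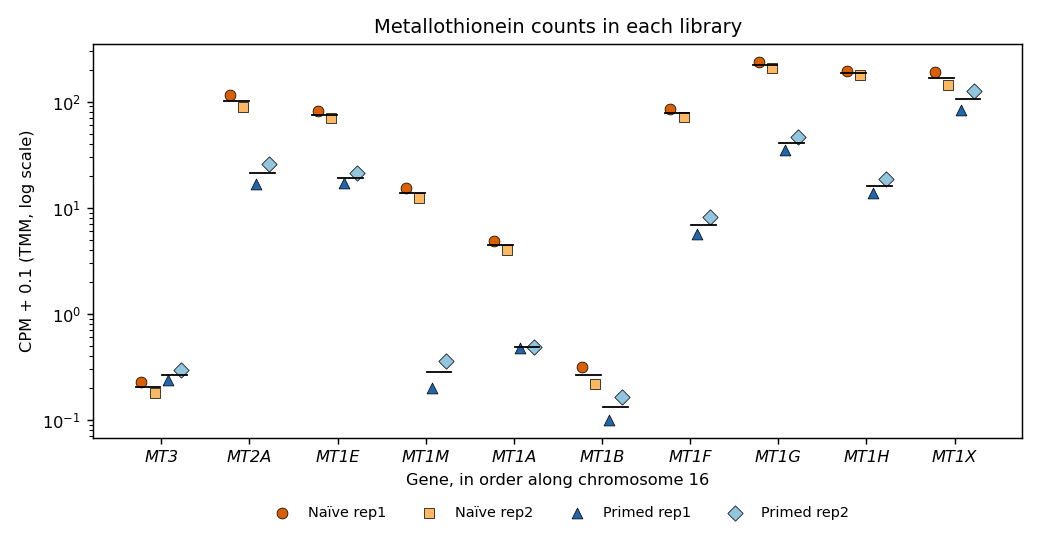
Counts of the 10 metallothionein genes in each library, as CPM after TMM with 0.1 added, on a log axis. Points are libraries and short lines are group means of 2. The naïve points lie above the primed points for the 8 genes tested, with the widest gap at MT1M, whereas MT3 and MT1B lie near the bottom in all libraries.

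MT1G (ENSG00000125144, chr16:56666730-56668065, minus strand) had 237 and 207 CPM in naïve rep1 and rep2 and 35.0 and 46.1 CPM in primed rep1 and rep2. It fell 5.47-fold, with a log2 fold change of -2.45 ± 0.16 (SE) and an adjusted p of 4.76e-18 by edgeR. MT1H (ENSG00000205358, chr16:56669814-56671129), its nearest neighbour on the other strand, had 196 and 179 CPM in naïve and 13.7 and 18.4 CPM in primed hESCs. Neither gene's groups came close to overlapping, and primed rep1 was the lowest library for both. The fall of MT1H was 11.7-fold, or -3.54 ± 0.17 on the log2 scale (adjusted p = 8.46e-23, edgeR).

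MT2A (ENSG00000125148, chr16:56608584-56609497), the only MT2 gene of the cluster, measured 115 and 88.1 CPM in naïve and 16.6 and 26.0 CPM in primed hESCs. Its group means were 101.5 ± 18.9 and 21.3 ± 6.63 CPM (SD, n = 2). MT2A was thus 4.76-fold lower in primed hESCs (log2 fold change -2.25 ± 0.17, adjusted p = 1.76e-15, edgeR). MT1E (ENSG00000169715, chr16:56625781-56627112) behaved much like it, with 80.8 and 69.4 CPM against 16.9 and 21.2 CPM. It was 3.93-fold lower, at -1.98 ± 0.16 (adjusted p = 5.98e-15, edgeR).

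MT1F (ENSG00000198417, chr16:56657731-56659303) had 85.6 and 71.1 CPM in naïve hESCs and 5.50 and 8.05 CPM in primed hESCs. Its log2 fold change was -3.53 ± 0.18, an 11.5-fold fall (adjusted p = 1.00e-21, edgeR). MT1A (ENSG00000205362, chr16:56638666-56640087) had 111 and 99 counts in naïve and 11 and 12 counts in primed hESCs. It fell by a similar factor, 11.2-fold (log2 fold change -3.49 ± 0.32, adjusted p = 7.71e-13, edgeR).

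MT1M (ENSG00000205364, chr16:56632659-56633981) had the largest fitted difference. It had 355 and 311 counts in the naïve libraries against 3 and 8 counts in the primed libraries, that is, 15.4 and 12.2 CPM against 0.102 and 0.261 CPM. The fitted fall was 73.5-fold (log2 fold change -6.20 ± 0.31, edgeR), and 294 of the 27633 genes had a lower log2 fold change. MT1M passed the count filter through the naïve libraries only, so its p-value is not given as evidence of a difference. The size of the fall rested on few primed counts, at -5.53 without primed rep1, -6.85 without primed rep2 and -5.57 by library size on the log2 scale. With 11 primed counts in all, the ratio of naïve to primed was 74.9 with an exact 95% interval from 41.6 to 150.8. This interval covers counting error only, as do the others below, since the reads carry no molecular identifiers. The count of 3 in primed rep1 equals the limit that a count of 0 would allow, so the gene was at the edge of detection there.

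MT1X (ENSG00000187193, chr16:56682470-56684196) differed least of the 8. It had 191 and 142 CPM in naïve and 83.8 and 126 CPM in primed hESCs, with group means of 166.9 ± 34.7 and 105.0 ± 30.0 CPM (SD, n = 2). After TMM the groups did not overlap, but naïve rep2 and primed rep2 were close. Scaled by library size they overlapped, since primed rep2 had more counts (3873) than naïve rep2 (3635) from a smaller gene-level total. It was 1.59-fold lower at -0.67 ± 0.16 (adjusted p = 3.20e-04, edgeR), and this call depended on the scaling and on 1 library. The log2 fold change was -0.025 (adjusted p = 0.895, edgeR) by library size, -0.72 (adjusted p = 0.0782) by DESeq2 and -0.24 (adjusted p = 0.301, edgeR) without primed rep1. The other 7 members tested were lower under TMM, library size and DESeq2 alike. A long noncoding RNA gene, ENSG00000259827, starts at the same base as MT1X on the same strand and runs past it, and its counts exceeded those of MT1X by at most 2, so alignments of these genes were not told apart.

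**Figure D2:**
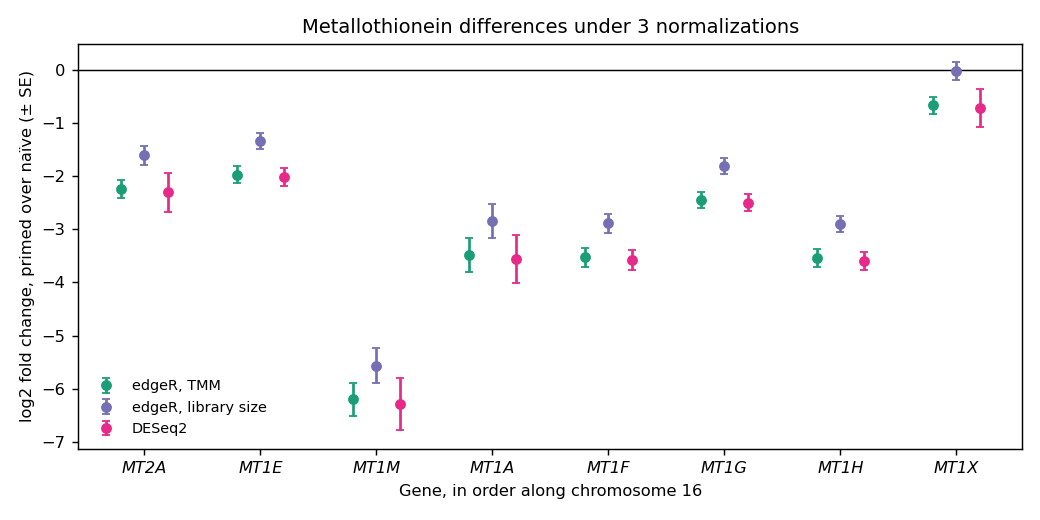
Log2 fold change of primed over naïve hESCs for the 8 genes tested, with edgeR after TMM, edgeR by library size and DESeq2. Bars are standard errors. All points but those of MT1X lie well below 0 under the 3 normalizations, and the library size value of MT1X lies at -0.025.

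MT3 (ENSG00000087250, chr16:56589528-56591085) had 3 and 2 counts in naïve and 4 and 6 in primed hESCs. MT1B (ENSG00000169688, chr16:56651886-56653204) had 5 and 3 counts against 0 and 2. Both were at or near the limit of 3 counts in each library, or 0.0978 to 0.130 CPM, so no difference was detectable at this depth. A long noncoding RNA gene, ENSG00000259923, overlaps MT1B on the same strand.

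Because the members fell by unequal factors, the make-up of the summed count also differed. MT1X made up 20.7% and 18.4% of it in naïve hESCs and 48.7% and 51.1% in primed hESCs. The 95% Wilson intervals were 20.1% to 21.2% and 17.9% to 19.0% in naïve, and 47.3% to 50.1% and 50.0% to 52.2% in primed hESCs. Of the members tested, MT1X thus had the smallest difference in count, and its share did not overlap between states. With 2 libraries against 2, an exact permutation test cannot go below p = 0.333, so shares are given without a test.

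The share of MT1H went the other way, from 21.2% and 23.1% to 7.95% and 7.47%. That of MT1F went from 9.23% and 9.21% to 3.19% and 3.26%. For MT1G the shares were 25.6% and 26.7% in naïve and 20.3% and 18.7% in primed hESCs. The shares of MT2A and MT1E differed less between states, at 12.4% and 11.4% against 9.64% and 10.5% for MT2A, and at 8.72% and 8.99% against 9.84% and 8.60% for MT1E. MT1M made up 1.66% and 1.58% of the naïve sum and 0.0591% and 0.106% of the primed sum.

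Ratios of counts between members of the same library do not depend on normalization. The count of MT1H was 82.9% and 86.4% of that of MT1G in naïve hESCs and 39.1% and 40.0% in primed hESCs. These 2 genes lie side by side. The count of MT1F was 106% and 102% of that of MT1E in naïve and 32.5% and 37.9% in primed hESCs. That of MT1M was 19.0% and 17.5% of MT1E in naïve and 0.601% and 1.23% in primed hESCs. The count of MT1X was 167% and 162% of that of MT2A in naïve and 505% and 486% in primed hESCs. In these pairs the replicates of a state were closer to each other than to the other state. The count of MT1A per MT1H did not separate the states, at 2.45% and 2.17% in naïve and 2.73% and 2.12% in primed hESCs.

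**Figure D3:**
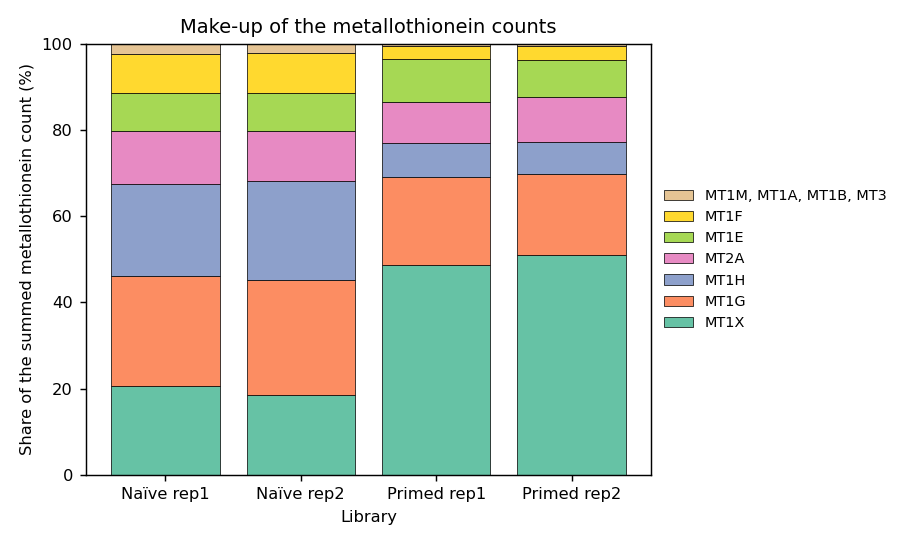
Share of each metallothionein gene in the summed count of the 10 genes, in percent, for each library. MT1X takes 20.7% and 18.4% of the naïve bars and 48.7% and 51.1% of the primed bars, and MT1H shrinks to 7.95% and 7.47%.

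Levels of different members were compared per kilobase of the exons of the canonical transcript, which ranged from 393 bases (MT1B) to 746 bases (MT1E). An alignment counts once whatever the length of its transcript, so the order depends on this scaling, mainly for MT1E. In naïve hESCs MT1G led with 541 ± 52.3 CPM per kb (SD, n = 2), followed by MT1H at 472 ± 31.7 and MT1X at 413 ± 85.9, the last pair of which overlapped. MT2A at 253 ± 47.2, MT1F at 184 ± 24.0, MT1E at 101 ± 10.8, MT1M at 34.6 ± 5.68 and MT1A at 11.0 ± 1.66 CPM per kb came next, with no overlap between neighbours in this order. MT1B and MT3 were last, and their ranges overlapped. In CPM without this scaling, MT1F (85.6 and 71.1) and MT1E (80.8 and 69.4) did overlap.

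The order in primed hESCs was another one. MT1X led with 260 ± 74.1 CPM per kb, above MT1G at 98.9 ± 19.1. MT2A at 53.1 ± 16.5 and MT1H at 40.5 ± 8.48 overlapped, and MT1E at 25.6 ± 4.08 stood above MT1F at 15.9 ± 4.24. MT1A, at 0.965 ± 0.0315 CPM per kb, lay above MT1M at 0.455 ± 0.282, which overlapped with MT3. Per kb, MT1H thus took the second place in naïve and the fourth in primed hESCs. MT1M stood above MT1A in naïve and below it in primed hESCs. The place of MT1H depended on the scaling. In CPM its primed mean (16.1) lay below that of MT1E (19.1), and their ranges overlapped.

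The size of the fall varied between adjacent members. MT1M (-6.20) lies between MT1E (-1.98) and MT1A (-3.49), and MT1X (-0.67), at the far end, comes next after MT1H (-3.54). Of the pseudogenes between the members, MT1L and MT1JP were tested, and both reached the minimum of 10 counts in the naïve libraries only. MT1L had 49 and 47 counts in naïve and 6 and 5 in primed hESCs (log2 fold change -3.40, edgeR), and MT1JP had 31 and 35 against 5 and 7 (-2.74, edgeR). Having entered through the naïve state, they do not bear on a shared direction, and their p-values are left out. MT1CP, MT1DP and MT1IP had at most 11 counts in a library and were not tested.

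**Figure D4:**
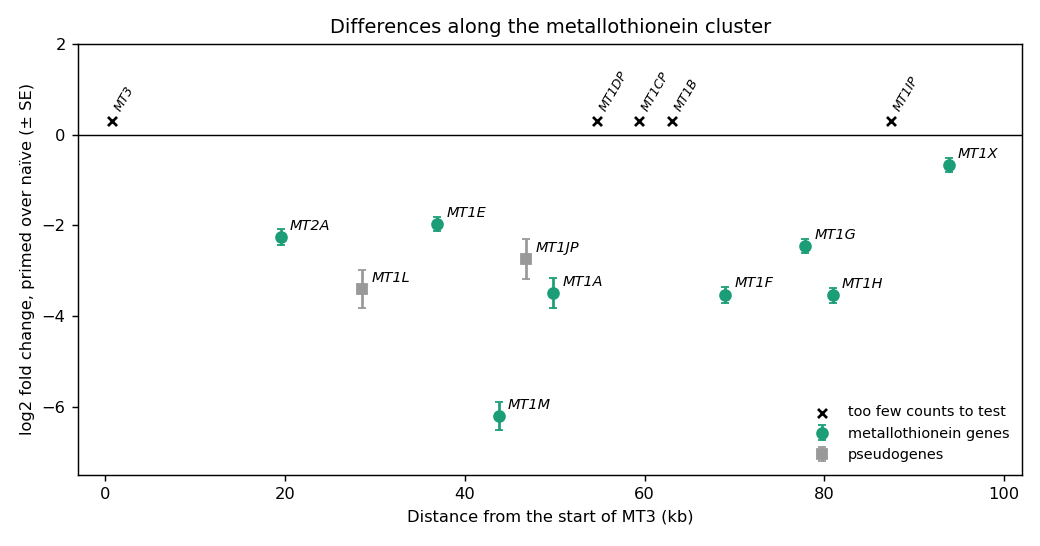
Log2 fold change of primed over naïve hESCs (edgeR after TMM, bars are standard errors) against position in kb. Position is the distance of the midpoint of each gene's counted transcript from the start of that of MT3 (56589528). Circles are the 8 members tested, squares are the pseudogenes MT1L and MT1JP, and crosses mark genes with too few counts to test, drawn above 0 without a value. Values run from -6.20 for MT1M to -0.67 for MT1X, and adjacent genes differ in the size of their fall.

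MT4, a metallothionein gene known from stratified epithelia, lies outside the stretch on its MT3 side. It had 112 and 124 counts in naïve hESCs and 0 and 1 in primed hESCs. The ratio of naïve to primed was 292 with an exact 95% interval from 51.9 to 11581. MT4 overlaps 1 other annotated gene, and counting ignored strand.

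Metallothionein sequences other than the members were counted too, both the pseudogenes between the members and copies elsewhere. Of the 11 other metallothionein genes and pseudogenes found in the files, 7 were tested and 6 were lower in primed hESCs, where 32.6% of all genes were (16.3% by library size). Of these 6, MT4, MT1L, MT1JP, MT1HL1 and MT1P3 reached the minimum of 10 counts in both libraries of the naïve state only, so their number does not bear on a shared direction. MT2P1 and MT1XP1 reached it in both states. On chromosome 4, MT2P1 had 229 and 198 counts in naïve and 38 and 52 in primed hESCs (log2 fold change -2.56, adjusted p = 4.07e-13, edgeR), which is 8.64% and 8.80%, and 7.77% and 6.52%, of the count of MT2A. On chromosome 1, MT1XP1 had 338 and 336 against 240 and 419 counts (-0.35, adjusted p = 0.0848, and 0.29 by library size, edgeR), or 7.65% and 9.24%, and 9.72% and 10.8%, of MT1X. The log2 fold change of -2.56 for MT2P1 stands beside -2.25 for MT2A, and -0.35 for MT1XP1 beside -0.67 for MT1X. MT1HL1, also on chromosome 1, had 44 and 50 against 4 and 15 counts (-2.60, edgeR), and MT1P3 on chromosome 20 had 19 and 15 against 3 and 6 (-2.19, edgeR). MT1P1 on chromosome 9 had between 4 and 9 counts and was not tested.

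The copies are alike in sequence. Between members without MT3, the coding sequences were 88.2% to 94.5% identical over 36 pairs, with a median of 91.3%, and the longest stretch of exact identity between transcripts was 96 bases, in MT1G and MT1X. MT3 was more distant, at 73.0% to 77.6% over 9 pairs. Pseudogenes were alike too. Over their aligned transcript bases, MT2A and MT2P1 were 97.3% identical, MT1X and MT1XP1 96.2%, and MT1H and MT1HL1 94.7%. The last pair shared an exact run of 109 bases. The counting option used by the authors adds an alignment at each place where a read aligns. How many counts are shared in this way was not tested. The values of single members and pseudogenes, the summed count, and the shares and ratios are uncertain to that extent. MT1H and MT1G, whose count ratio is given above, share an exact run of 60 bases.

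Usage of isoforms within a gene was tested, but these counts could hardly show a change in it. The members have 33 annotated isoforms, of which 24 in 7 genes were tested. With edgeR's diffSpliceDGE, 0 of the 24 were called at an adjusted p under 0.05 and a change in isoform fraction beyond 0.1, and 0 had an unadjusted p under 0.05, where 0.545% of 159577 isoforms were called over all genes. The largest change in isoform fraction was 0.0229, in MT1M-202. Since the counts cover whole spans, isoforms of a member mostly held the same alignments. With identical isoforms collapsed, 11 were tested and 0 were called. The absence of calls therefore says little about usage.

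At MT1X the spans did differ. The 593 bases from 56683604 to 56684196, which hold the last exon, are in MT1X-201 and not in MT1X-202. Alignments that met these bases but not the span of MT1X-202 were counted by subtraction. They were 9.01% and 5.64% of the MT1X-201 counts in naïve rep1 and rep2, and 2.19% and 2.92% in primed rep1 and rep2. The 95% Wilson intervals were 8.20% to 9.89% and 4.94% to 6.44%, against 1.68% to 2.84% and 2.43% to 3.50%. Such alignments were thus a larger share in both naïve libraries, a comparison made after the values were seen. Their length was not measured, and they may run past the end of MT1X.

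Over the lists of genes that sense and move metals, some genes were lower and others higher in primed hESCs. Of 7 genes for metal sensing, 3 were lower, 0 were higher and 4 were not called by edgeR, with a median log2 fold change of -0.27 (by library size 1 was lower and 2 were higher). MTF1, the metal-responsive factor itself, had 112 and 129 counts in naïve and 116 and 140 in primed hESCs, with a log2 fold change of -0.22 (adjusted p = 0.354, edgeR) and of 0.42 by library size (adjusted p = 0.0815, edgeR). SP1, a general promoter factor, was lower (-1.10), as was USF2 (-0.44, but 0.19 and not called by library size). SLC30A1, the zinc exporter of the plasma membrane and another classic MTF1 target, had 50 and 91 counts against 65 and 66 counts (-0.40, adjusted p = 0.171, and 0.23 by library size, edgeR), and its groups overlapped. Whether it differed less than the metallothionein genes was not tested.

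Of 8 zinc exporters of the ZnT family tested, 3 were higher, 2 were lower and 3 were not called (median 0.26, and 5 higher and 1 lower by library size). SLC30A3, which loads zinc into vesicles, rose from 8 and 3 counts to 97 and 136 (log2 fold change 4.06, adjusted p = 1.96e-12, edgeR). SLC30A9 rose as well (1.25) and SLC30A5 fell (-1.04). Of 13 zinc importers of the ZIP family, 6 were higher, 4 were lower and 3 were not called (median 0.44, and 9 higher and 2 lower by library size). SLC39A4, the importer whose loss causes acrodermatitis enteropathica, fell from 546 and 524 counts to 21 and 24 (-4.87, adjusted p = 5.46e-23, edgeR), and SLC39A7, which releases zinc from the endoplasmic reticulum, also fell (-1.59), as did SLC39A11 (-0.70, but -0.07 and not called by library size). SLC39A6 rose from 34 and 57 to 285 and 263 counts (2.29, adjusted p = 5.15e-12, edgeR), with smaller rises of SLC39A10 (0.80) and SLC39A14 (0.54).

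Of 13 copper handling genes, 8 were lower, 2 were higher and 3 were not called (median -0.59, and 3 lower and 5 higher by library size). Among them were the copper exporter ATP7B (-1.71), the importer SLC31A1 (-1.30) and COMMD1 (-0.81), the last of which was not called by library size (-0.17). STEAP3 (0.67) and COX11 (0.58) were higher.

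**Figure D5:**
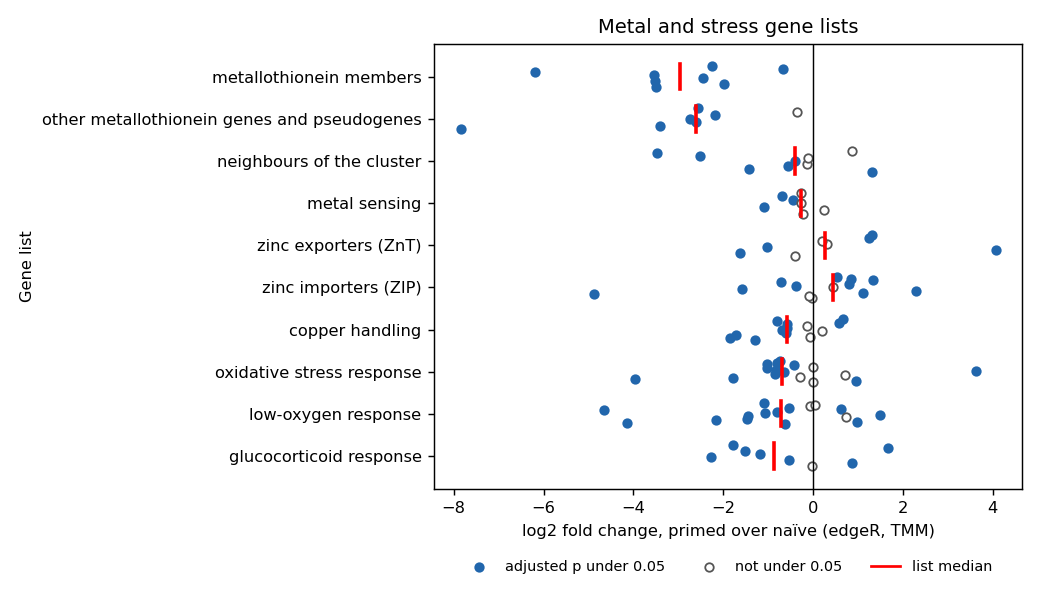
Log2 fold change of primed over naïve hESCs (edgeR after TMM) for each gene tested in the lists. Filled points had an adjusted p under 0.05 over all genes, open points did not, and red lines are list medians, -2.97 for the members. The leftmost point, MT4, rests on 1 primed count and its fitted value is not a bound.

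Genes of other conditions known to act on metallothioneins moved in both directions. Of 16 oxidative stress genes, 10 were lower, 2 were higher and 4 were not called (median -0.69). HMOX1, the inducible heme oxygenase, fell from 973 and 965 counts to 71 and 82 (log2 fold change -3.97, adjusted p = 5.74e-23, edgeR), and NQO1 (-1.79) and GPX4 (-1.03) fell less, whereas KEAP1 rose (0.95). Of 16 low-oxygen genes, 10 were lower, 3 were higher and 3 were not called (median -0.71). NDRG1 (-4.66), EPAS1 (-4.14) and EGLN3 (-2.16) were lower, and PDK1 (1.50), EGLN1 (0.98) and ANKRD37 (0.63) were higher. Of 8 glucocorticoid response genes, 5 were lower, 2 were higher and 1 was not called (median -0.86), with PER1 (-2.27), SGK1 (-1.51) and TSC22D3 (-0.55, but 0.09 and not called by library size) lower and FKBP5 (0.85) higher. By library size these lists had 4 lower and 5 higher, 7 lower and 6 higher, and 3 lower and 3 higher genes. Their part in the metallothionein values was not tested.

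Genes next to the cluster did not fall as a block. Of 9 neighbours tested, 5 were lower, 1 was higher and 3 were not called, with a median of -0.41 (3 lower and 4 higher by library size). HERPUD1, an endoplasmic reticulum stress gene, fell from 971 and 931 counts to 130 and 83 (log2 fold change -3.46, adjusted p = 2.25e-20, edgeR). The polyadenylation factor NUDT21 was lower too (-0.55), but not by library size (0.09). GNAO1, a G protein subunit, was higher (1.32).

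Sums of other marker genes also differed between the states, some lower and others higher in primed hESCs. Markers of trophoblast summed to between 2074 and 2408 CPM in naïve and between 9.42 and 10.3 CPM in primed hESCs, with 7 of 8 lower, and those of amnion to between 16.6 and 18.1 against 3.81 and 5.06 CPM, with 5 of 5 lower and TFAP2B at 0 in primed hESCs. Fibroblast markers summed to between 2.55 and 3.55 CPM in naïve and between 57.6 and 59.5 CPM in primed hESCs, with 2 of 3 tested higher. Neural markers summed to 1.91 to 2.27 against 12.8 to 13.4 CPM, with SOX1 at 0 in naïve hESCs and NEUROD1 at 0 in both states, and those of mesoderm and endoderm to 4.42 to 4.97 against 2.41 to 2.97 CPM, with FOXA2 at 0 in naïve hESCs. Pluripotency markers summed to 546 to 628 against 939 to 985 CPM.

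Of 199 protein-coding genes tested with a canonical transcript of at most 500 bases, other than metallothioneins, 60.3% were lower, with a median log2 fold change of -0.87, against 34.2% and 0.04 over all 15902 protein-coding genes. By library size the shares were 42.2% and 16.1%. All members tested but MT1E have canonical transcripts of this length, and the median of the 8 members was -2.97. The length limit was chosen after the values were seen. The part of transcript length and of other cell types in the metallothionein values was not tested.

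Over 17608 genes (mean count 50 or more), the 3 whose levels over the 4 libraries lay nearest to the summed metallothionein count, by Euclidean distance of centred log2 CPM, were CLN3, MRPS18CP7 and ENSG00000291138. CLN3, a lysosomal membrane protein gene, had 515 and 453 counts in naïve and 113 and 158 in primed hESCs, at a distance of 0.106. The distances of the other two were 0.115 and 0.119. The likeness rests on 4 libraries.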

How the data were processed

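The authors aligned Nanopore cDNA reads of the 4 libraries to GRCh38 with minimap2 and deposited, for each library, raw counts of alignments per transcript from featureCounts 2.0.0 on Ensembl release 105. Per the file headers, whole transcript spans were counted, introns included and strand ignored, each alignment counted for every span it overlapped, and multi-mapping alignments were counted at each place. Total counts were 153647482 and 161548901 in naïve and 129276054 and 132927036 in primed hESCs. The limit for a count of 0 was set at 3 counts in every library, whatever its total. Intervals and limits cover counting error only.

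Transcript identifiers were looked up in GENCODE release 44, where 242542 of 244825 were found, 97.9% with the same coordinates, and the other 2283 were left out. Genes reaching 10 counts in 2 or more libraries entered edgeR 4.0.16 in R 4.3.3 (TMM, glmQLFit and glmQLFTest, state as the term, adjusted p under 0.05). Log2 fold changes are primed over naïve. The same counts of isoforms entered diffSpliceDGE. Alternatives were library size, DESeq2 1.42.0, no filter on low counts or one of 50 counts, a replicate block, counts summed over transcripts, transcripts that overlap no other gene, and each library left out. The scripts were tested on simulated counts with 200 changed genes.

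The members and gene lists were chosen with earlier results of these data known. Named are all members and other metallothionein genes, MTF1, SLC30A1, the 3 nearest patterns and, from each list, up to 3 called genes in each direction with the largest change, a mean count of at least 50 and no overlap between states, of which 1 is not reported here. Protein sequences were not used here, and the promoter table lacked the other 6 members.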

Additional observations from a re-analysis of the deposited data

How the results depend on the processing

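The 8 member calls became 7 by library size, with DESeq2, with transcripts that overlap no other gene (MT1X has none), and without naïve rep1, naïve rep2 or primed rep1, a range of 7 to 8 over libraries left out. MT1M was not tested without either naïve library. Without a count filter MT1B and MT3 were tested and not called. The log2 fold change of MT1X was -0.025 by library size and -0.72 with DESeq2, neither called, nor was it without primed rep1, and it ranged from -0.93 to -0.24 over libraries left out. The log2 difference of the summed count, -2.04, became -1.40 by library size, and -2.72 both without MT1X and with transcripts that overlap no other gene, and ranged from -2.30 to -1.78 over libraries left out. In all, 118 of 125 alternative values kept their direction and side of the threshold or their size.

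Over all genes, 19337 were called, 53.4% of them higher in primed hESCs. This became 9242 with transcripts that overlap no other gene, where 13280 genes were tested, and the share higher became 77.5% by library size. With the replicate block, 8 members and 19689 genes were called, the summed count differed by -2.04, and 0 member isoforms were called. Same-numbered libraries did not deviate together (correlation 0.0591 over 27633 genes, 2 pairs), so no pairing was shown, and the block changed no member's call. Without a library, the lone one of its state is assumed to vary like the other group. Depth limits MT3 and MT1B.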
